A study of Mus musculus with 6 samples.

Results

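Peaks of open chromatin at transcription termination sites (TTS) were taken from an ATAC-seq table of mouse natural killer (NK) cells as every row whose genomic class began with TTS, which gave 986 of 51775 consensus peaks (1.9%). ATAC-seq uses a transposase to cut open DNA, so the reads in a peak measure how accessible that stretch is. The tested cells were Rroid deficient and the comparison cells wildtype, both of the C57BL6 background and sorted from spleen by NK1.1 and NKp46 without CD3 or CD5, with 3 libraries each. Rroid is a locus on the chromosome of Id2 that gives rise to a long noncoding RNA, and the series asks how its loss alters NK chromatin. The labels do not say how the locus was disrupted, nor do they say that libraries came from separate mice. The spread behind each p-value is therefore that between libraries, and it may be technical.

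A termination site is the annotated 3′ end of a transcript, where the RNA is cleaved and polyadenylated and the polymerase is later released. Open chromatin there can belong to an enhancer that happens to lie beyond a gene, to the promoter of a neighbouring gene, or to the far side of a gene so short that its start and end share 1 open region. HOMER, the annotation tool, assigns the TTS class to a window around the annotated end and gives start sites priority over it, and separately names the gene with the nearest start site. The gene that ends at a peak and the gene whose start is nearest are therefore often different, and neither has been shown to be regulated by the peak.

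Values are normalized reads per peak as deposited, and coordinates are mm9. Depth was 27572006 to 47939665 reads in peaks per library, lowest in Rroid-deficient libraries 4 and 6. Across the 986 TTS peaks, libraries of 1 genotype correlated at a Pearson's r of 0.977 to 0.984 (log2 values) and libraries of different genotype at 0.933 to 0.955. On chromosome 12 (26000744 to 26079794), 13 neighbouring peaks, none of them a TTS peak, were picked because their Rroid-deficient mean was far under their wildtype mean. Their values summed to 51.4 to 56.8 in Rroid-deficient and 4181.5 to 5600.4 in wildtype libraries. Since the labels served to pick these peaks, the sums are not a separate check of the labels. Of 12 NK markers 11 had a peak within 1 kb of the start site, whereas 6 of 10 T-cell, 5 of 9 B-cell, 8 of 11 myeloid and 6 of 7 erythroid markers had none, among them Cd3e, Cd79a, Csf1r and Gata1. Such a peak was also found at 7 of 8 markers of type 1 innate lymphoid cells (ILC1) and tissue residency. It was found at 4 of 7 dendritic-cell and 2 of 9 ILC2 and ILC3 markers. These peaks therefore do not tell NK cells from ILC1.

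The genes ending at these peaks were of several kinds. The 986 peaks carried 984 transcript accessions, and 984 peaks could be paired with an ending gene. That gene was protein coding at 873 peaks, a microRNA gene at 46 and a long noncoding RNA gene at 47, with the other 20 of other types or not matched. At 467 peaks the ending gene was also the gene with the nearest start, and at 517 peaks the nearest start belonged to another gene. No gene had 3 or more TTS peaks, and 3 genes had a pair.

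MicroRNA genes are short, so that their start and end can share 1 open region. The 46 peaks at their ends lay a median of 383.5 bp from a start site. Whether the peaks belong to the microRNA genes was not tested. MicroRNAs silence messenger RNAs that pair with the seed, bases 2 to 8. Of the 46 peaks, 5 rose and 2 fell (10.9% and 4.35%, against 13.8% and 12.1% of all peaks), and the other 39 had no call. Together 15.2% were called, against 25.8% of all peaks, while the groups did not overlap at 43.5%, against 40.1% of all peaks. The difference between these peaks and all peaks was not tested. The mature sequences of the 3 genes with the smallest adjusted p among these 7 are shown because they tell which seeds belong to the microRNA genes beside the changed peaks (5′ to 3′, RefSeq, GRCm38.p6, seed in capitals).
mmu-miR-5618-5p: uACCCUUUacaccguguagu
mmu-miR-5618-3p: cUAUACCAuguaaagggu
mmu-miR-7675-5p: cUUACGAAagaaugaagagcaa
mmu-miR-7675-3p: uGUUUCAUuuguucgugacuc
mmu-miR-6973a-5p: uACGGUGGgagggguggaguug
mmu-miR-6973a-3p: cACUCUAAcccuaccuacccau
The 10 mature sequences of the 7 genes had 10 different seeds.

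At the end of Mir5618 (chromosome 9, 7784422 to 7785091) the values were 343.5, 280.8 and 299.8 in Rroid-deficient libraries and 193.2, 135.3 and 159.2 in wildtype libraries. The groups did not overlap, and the peak rose by 0.93 on the log2 scale (SE 0.17, adjusted p = 0.000573, limma). The peaks on either side of it moved in opposite directions, one with a log2 fold change of 1.10 and the other of -1.44. At Mir7675 (chromosome 12, 11307278 to 11308177) the values were 165.8, 113.3 and 146.3 in Rroid-deficient libraries and 239.5, 271.4 and 325.3 in wildtype libraries, a fall with a log2 fold change of -0.98. At Mir6973a (chromosome 17, 35331057 to 35334262) they were 2003.8, 2514.1 and 1965.8 in Rroid-deficient libraries and 1390.0, 1515.6 and 1200.4 in wildtype libraries, a log2 fold change of 0.66; this peak was chosen after its values were seen. The lowest library of the higher genotype stood above the highest library of the lower genotype at all 3 sites. The other 4 called peaks of this kind, at Mir101c, Mir5625, Mir7654 and Mir8092, had log2 fold changes of -0.30 to 0.62, and the groups overlapped at Mir101c. The highest TTS peak of the table lay at Mir5130 and held 10332.2 ± 170.9 in Rroid-deficient and 11482.5 ± 537.7 in wildtype libraries (SD, n = 3 each), with no call.

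Across all 986 TTS peaks, 116 rose in Rroid-deficient cells and 90 fell, while 780 had no call (limma with an intensity trend, fitted on all 51775 peaks, adjusted p under 0.05). These are 11.8% and 9.13% of the members, 20.9% together. Among all 51775 peaks 13.8% rose and 12.1% fell, 25.8% together. In a bulk sample, fewer cells of a type and less accessibility per cell cannot be told apart. The groups did not overlap at 35.6% of TTS peaks and at 40.1% of all peaks. On the log2 scale the median change was 0.01 for TTS peaks and -0.01 for all peaks, and the quartiles were -0.21 and 0.30 for TTS peaks and -0.24 and 0.30 for all peaks. When libraries were scaled to their total reads, 142 TTS peaks rose and 72 fell, where 8229 and 4944 of all peaks did, and the median over all peaks was 0.05. Without wildtype library 2 the falling TTS peaks numbered 57 and the falling peaks of the whole data set 4039. The share of all normalized reads that lay in TTS peaks was 1.45, 1.52 and 1.48% in Rroid-deficient libraries 4, 5 and 6 and 1.47, 1.48 and 1.40% in wildtype libraries 1, 2 and 3.

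**Figure D1:**
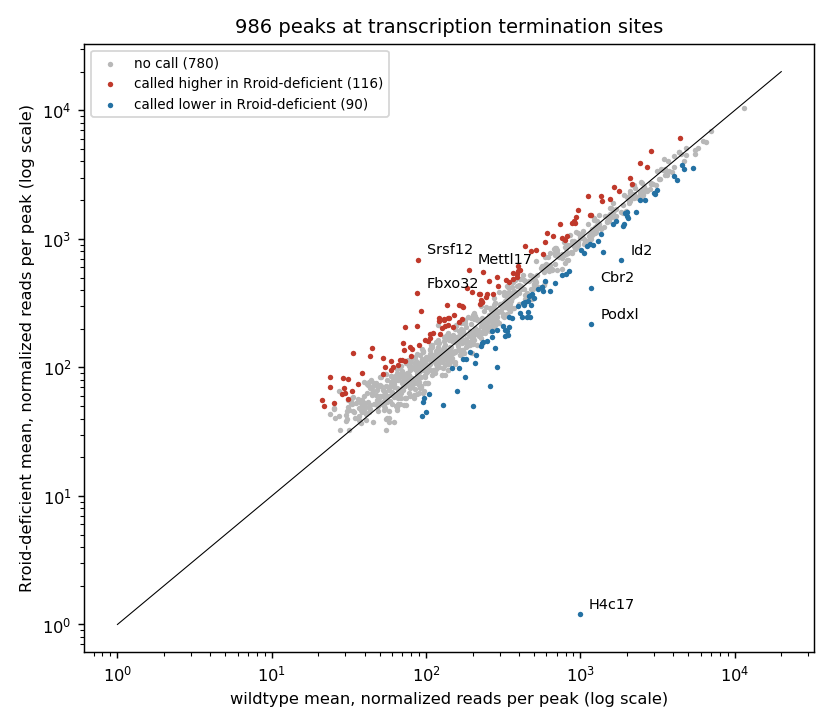
Mean normalized reads of each of the 986 TTS peaks in Rroid-deficient (vertical) and wildtype libraries (horizontal), both on log scales, coloured by call; the line marks equal values. Most points lie along the line, H4c17 stands alone at 1.2 against 992.9, and Srsf12 lies farthest above the line.

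Called changes were mostly under 2-fold. TTS peaks that rose did so by a median of 0.73 on the log2 scale, against 0.85 for all rising peaks, and those that fell had a median of -0.57, against -0.59 for all falling peaks. At least 2-fold changes were reached by 26 rising and 12 falling TTS peaks, 2.64% and 1.22% of the class, and by 2641 rising and 991 falling peaks of the whole data set, 5.10% and 1.91%. All peaks were ranked by mean log2 value and split into 4 equal classes. Of 232 TTS peaks in the lowest class, 22 rose and 7 fell (9.48% and 3.02%), where 13.2% of all peaks rose and 3.92% fell. Of 209 in the highest class, 26 rose and 28 fell (12.4% and 13.4%), where 7.77% of all peaks rose and 16.8% fell. The difference between TTS peaks and other peaks of the same class was not tested. At peaks under the median of the table, the 3 Rroid-deficient libraries 4, 5 and 6 deviated from the mean of the libraries by a median log2 value of 0.14, -0.08 and 0.11 over TTS peaks, and the wildtype libraries 1, 2 and 3 by 0.02, -0.07 and -0.07. The 2 shallowest libraries were thus the highest there, and the part of this in the rising calls was not tested. Without them, the median log2 fold change was -0.003 for TTS peaks and -0.023 for all peaks. That fit holds 1 Rroid-deficient library, number 5, which is assumed to vary as the wildtype libraries do.

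**Figure D2:**
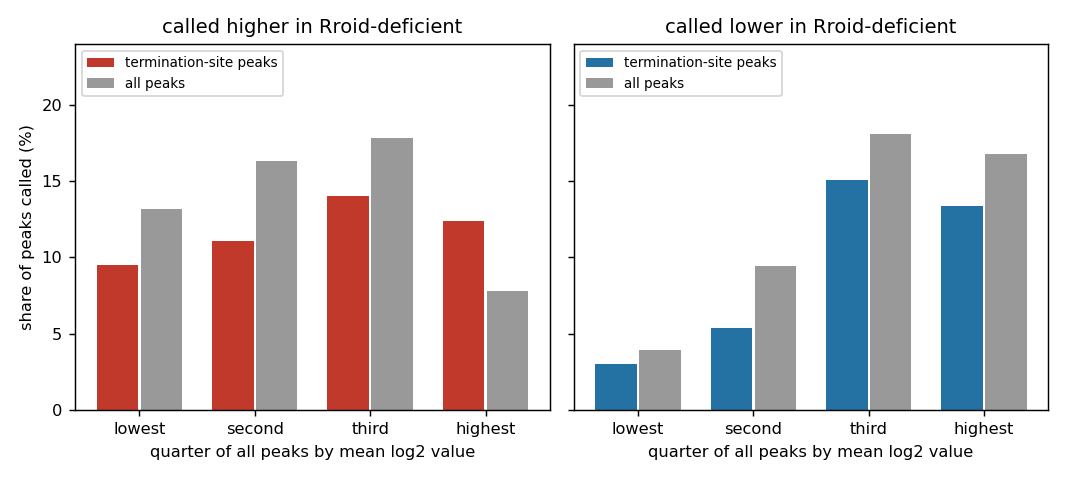
Share of peaks called higher (left) and lower (right) in Rroid-deficient cells, in percent, in 4 equal classes of all peaks ranked on mean log2 value; coloured bars are TTS peaks and grey bars all peaks. Coloured bars lie under grey ones in every class except for rising peaks of the highest class (12.4% against 7.77%).

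TTS peaks close to a start site were more open than those far from one. The 234 TTS peaks within 2 kb of any start had a median mean value of 680.0 in Rroid-deficient and 686.4 in wildtype libraries. The 352 peaks at 2 to 10 kb had medians of 158.4 in Rroid-deficient and 177.5 in wildtype libraries, and the 400 peaks farther away 125.4 in Rroid-deficient and 122.3 in wildtype libraries. Values are per peak and not per base, and the median widths of the 3 classes were 1214.5, 781.5 and 830.0 bp from near to far. No member lay closer than 101 bp to a start. Promoter peaks had medians of 1419.1 in Rroid-deficient and 1442.4 in wildtype libraries, and 3′ UTR peaks 141.4 in Rroid-deficient and 124.2 in wildtype libraries. Within 2 kb, 20 TTS peaks rose and 18 fell (16.2% called), at 2 to 10 kb 46 rose and 38 fell (23.9%), and beyond 10 kb 50 rose and 34 fell (21.0%). Of all peaks 13.8% rose and 12.1% fell (25.8% called). The share called was also lower at promoter peaks (18.7%) and 5′ UTR peaks (19.7%). Of the peaks whose ending gene also had the nearest start, 53 rose and 44 fell of 467. Where the nearest start was another gene's, 63 rose and 45 fell of 517, so 20.8% and 20.9% were called.

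**Figure D3:**
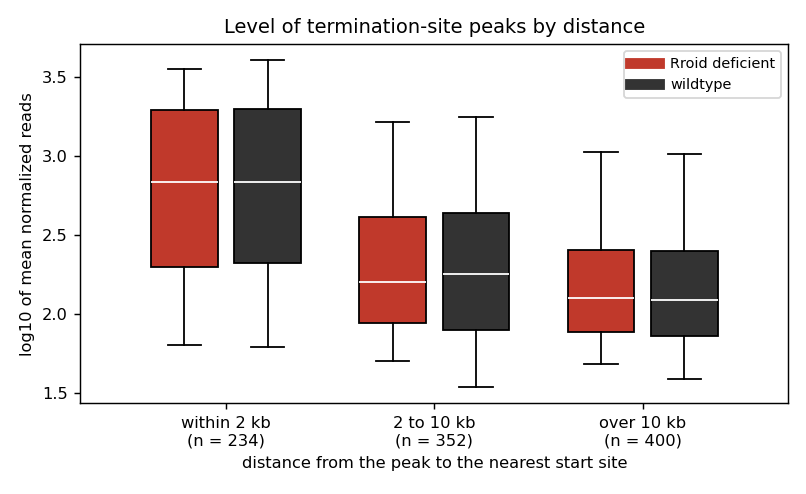
Log10 of the mean normalized reads of TTS peaks by distance to the nearest start site (boxes, middle 50% of peaks with the median in white; whiskers, 5th to 95th percentile), Rroid deficient in red and wildtype in black. The nearest class is the most open, and the genotypes lie close together in each class.

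The deepest fall of any TTS peak was at a histone gene. Histone genes of the replication-dependent clusters are short and end near their own start. The peak at the end of H4c17, with Hist1h4n as the nearest start (chromosome 13, 21903365 to 21905095), held 1.3, 1.0 and 1.2 normalized reads in Rroid-deficient libraries and 780.9, 1147.6 and 1050.0 in wildtype libraries. Each Rroid-deficient value was that of 1 read, the lowest value at any peak of its library, so it may be a floor that stands for fewer reads. Taken as 3 reads over the 3 Rroid-deficient libraries, the level was 0.117% of wildtype (95% exact Poisson interval 0.0241 to 0.342%, counting error only). If the values are a floor, the lower bound does not hold. The fall had an adjusted p of 6.21e-12 (limma). The next TTS peak, at the end of H4c18 (21923149 to 21924315) and chosen after its values were seen, lay within the same cluster and held 399.2, 509.3 and 463.1 in Rroid-deficient and 550.3, 732.6 and 769.7 in wildtype libraries. It fell by 0.57 on the log2 scale, so the near loss did not extend to it.

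The remaining histone ends were less changed. H1f5, which encodes a linker histone, fell by 0.40 on the log2 scale (2383.3 ± 172.9 in Rroid-deficient and 3149.2 ± 124.7 in wildtype libraries) and H4c3 fell by 0.56 on the log2 scale (2855.0 ± 159.3 in Rroid-deficient and 4204.4 ± 415.4 in wildtype libraries). H4c14, on another chromosome, held 3628.3 ± 496.8 in Rroid-deficient and 4011.1 ± 326.0 in wildtype libraries without a call. In all, 4 of 5 histone TTS peaks fell and 0 rose. Of all 51775 peaks 12.1% fell and 13.8% rose, and in the highest of the 4 classes by mean log2 value 16.8% fell. That class does not hold all 5 histone peaks, as H4c17 had a mean log2 value of 5.523, under the table median of 7.57. Histone H4 genes are near-identical copies, so reads may have been split between them and values of single members are uncertain. The histone list was chosen with earlier results of these data known. In the fit with 1 Rroid-deficient library (number 5) the H1f5 call was lost, at a log2 fold change of -0.31 (adjusted p = 0.128, limma, spread from wildtype libraries alone).

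At the end of Id2 the chromatin closed to 37.2% of wildtype. Id2 encodes an inhibitor that keeps E-protein transcription factors from binding DNA and is required for NK cells. The peak (chromosome 12, 25777102 to 25778507) held 657.8, 745.4 and 649.2 normalized reads in Rroid-deficient libraries and 1614.4, 2054.1 and 1855.8 in wildtype libraries. Every Rroid-deficient library lay well below every wildtype library, and the log2 change was -1.42 with an SE of 0.11 (limma, adjusted p = 8.94e-08). The promoter peak of Id2 fell less, with 3157.4 ± 245.0 in Rroid-deficient and 4977.0 ± 457.8 in wildtype libraries (log2 fold change -0.66).

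**Figure D4:**
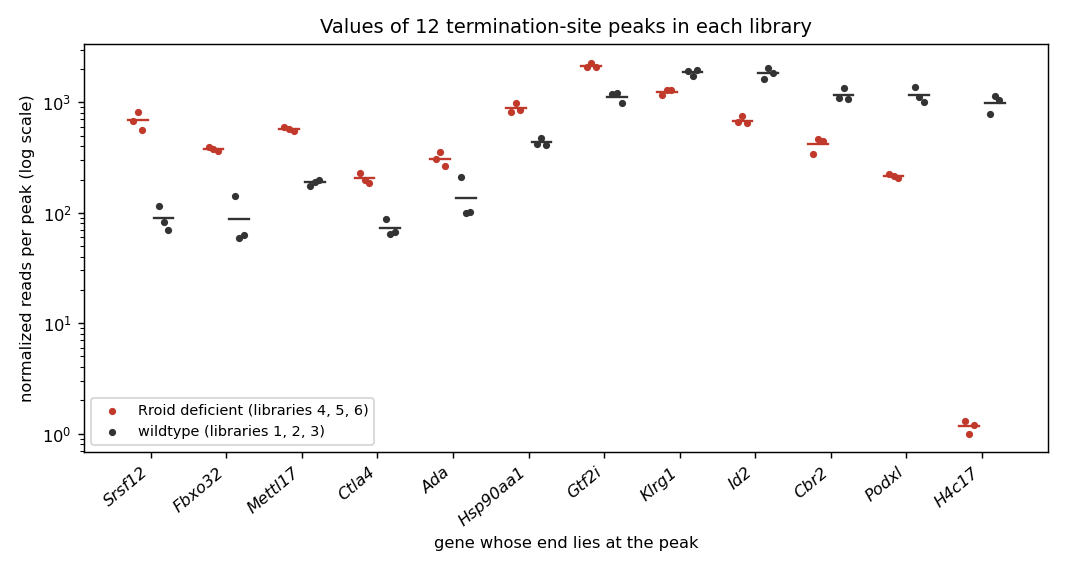
Normalized reads per library (log scale) at 12 TTS peaks, named by the gene that ends there; red, Rroid-deficient libraries 4, 5 and 6; black, wildtype libraries 1, 2 and 3; lines, means. The genotypes are apart at all 12, with Srsf12 to Gtf2i higher and Klrg1 to H4c17 lower in Rroid-deficient cells.

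Podxl had the deepest fall among the more open members. It encodes podocalyxin, a sialomucin of the cell surface. The peak at its end (chromosome 6, 31468366 to 31469622), 44943 bp from its start, held 224.1, 217.0 and 207.9 in Rroid-deficient and 1383.7, 1119.1 and 1014.8 in wildtype libraries, 18.5% of wildtype (log2 fold change -2.42, SE 0.13, adjusted p = 2.63e-09, limma). The spread in wildtype, where library 1 was highest, was small beside the difference. The Podxl promoter peak also fell, with 229.1 ± 28.8 in Rroid-deficient and 406.3 ± 74.2 in wildtype libraries (log2 fold change -0.82), and in wildtype it was lower than the peak at the end.

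At the end of Cbr2, a carbonyl reductase gene, a run of peaks fell together. The TTS peak (chromosome 11, 120590030 to 120591392) held 339.5, 462.6 and 447.3 in Rroid-deficient and 1089.9, 1356.8 and 1075.4 in wildtype libraries (log2 fold change -1.50, adjusted p = 5.13e-07, limma). The neighbouring promoter of Dcxr, which encodes a sugar and carbonyl reductase, fell by 0.60, that of Rac3 by 0.46, and the intergenic peak on the other side by 0.88 on the log2 scale. At P2ry14, which encodes a receptor for UDP-sugars, the peak at the end fell by 0.80 (190.3 ± 5.2 in Rroid-deficient and 331.9 ± 17.8 in wildtype libraries), and both intronic peaks next to it on the P2ry14 side fell by 0.72 and 0.69. The other falling peaks among the 10 with the largest changes lay at the ends of Mir7675, Septin5, BC029722, Trim46, Atp10a and Gm10787, with log2 fold changes of -0.98 to -0.83. With Rroid-deficient library 5 as the lone library of its group, Trim46 had a log2 fold change of -0.65 and no call (adjusted p = 0.0577, limma, spread from wildtype libraries alone).

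The largest rise was at the end of Srsf12, which encodes a splicing factor of the SR family. The peak (chromosome 4, 33320815 to 33321741) held 684.3, 822.5 and 562.2 in Rroid-deficient libraries and 114.9, 83.2 and 69.3 in wildtype libraries. The lowest Rroid-deficient value was far above the highest wildtype value, and the mean was 7.74-fold higher (log2 fold change 2.95, SE 0.19, adjusted p = 1.62e-08, limma). An intronic peak of Srsf12 beside it rose by 2.46 and one near its start by 0.85 on the log2 scale. The nearest start site was that of Pnrc1, a nuclear receptor coactivator, whose own exon peak held 11612.0 in Rroid-deficient and 12390.9 in wildtype libraries on average, with no call.

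Mettl17, which encodes a mitochondrial protein of the methyltransferase-like family, opened at its end, with no call at its promoter. The TTS peak (chromosome 14, 52511724 to 52512606) held 600.7, 579.7 and 551.3 in Rroid-deficient and 173.6, 191.6 and 200.2 in wildtype libraries (log2 fold change 1.61, adjusted p = 2.01e-07, limma). The groups were tight and far apart. The peak lay 1120 bp upstream of the nearest start site, that of Slc39a2, and which gene it belongs to was not tested. The Mettl17 promoter held 2833.7 ± 114.8 in Rroid-deficient and 2863.0 ± 201.4 in wildtype libraries, with a log2 fold change of -0.01. Fbxo32, a ubiquitin ligase subunit gene chosen after its values were seen, had 395.2, 378.9 and 360.3 at its end in Rroid-deficient and 141.6, 59.6 and 62.5 in wildtype libraries, a log2 fold change of 2.21, and -0.01 at its promoter. Wildtype library 1 stood above the other wildtype libraries there but under every Rroid-deficient library.

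Hsp90aa1, which encodes an inducible form of the chaperone HSP90, opened at its end, with 823.5, 984.3 and 845.1 in Rroid-deficient and 422.1, 478.9 and 413.2 in wildtype libraries (log2 fold change 1.01, adjusted p = 8.76e-06, limma). Its start-site peak, classed as 5′ UTR, held 5687.9 in Rroid-deficient and 6106.4 in wildtype libraries on average, with no call. Ada encodes adenosine deaminase, which clears adenosine. Its end held 305.0, 353.2 and 266.0 in Rroid-deficient and 209.3, 99.1 and 102.6 in wildtype libraries (log2 fold change 1.24), wildtype library 1 being the highest of its group. Gtf2i, which encodes a general transcription factor, rose by 0.94 at a strong peak at its end (2158.6 ± 120.4 in Rroid-deficient and 1126.2 ± 126.2 in wildtype libraries), and the peaks on both sides rose too. The other rising peaks among the 10 with the largest changes lay at the ends of Kcnh1, Osbp2, Mir5618, Dlx1as and Clstn1, with log2 fold changes of 0.89 to 1.15.

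The end and the promoter of a gene were compared where the table held both, for 343 TTS peaks. The median TTS value was 217.3 and the median promoter value 1454.2, and the end held more reads than the promoter at 66 genes, without correction for peak width. Of the 48 TTS peaks that rose, the promoter rose at 8, fell at 3 and had no call at 37. Of the 30 that fell, the promoter fell at 9, rose at 0 and had no call at 21. Of the 265 without a call, the promoter rose at 28 and fell at 22. Over all 6486 promoter peaks, not only the most open of each gene, 9.94% rose and 8.8% fell. Whether ends and promoters share direction more often than other peaks was not tested.

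Both ends rose at Ctla4, an inhibitory receptor gene of lymphocytes chosen after its values were seen, and the end held 228.1, 198.0 and 187.4 in Rroid-deficient and 88.2, 64.7 and 66.4 in wildtype libraries (chromosome 1, 60973188 to 60973826; log2 fold change 1.48, adjusted p = 3.44e-05, limma). Its promoter averaged 195.1 ± 32.2 in Rroid-deficient and 52.4 ± 10.2 in wildtype libraries (log2 fold change 1.88). The 3 genes whose end rose while the promoter fell were Stard3nl, Ankrd11 and Bcl9l, also chosen after their values were seen. Stard3nl, which encodes a tether of late endosomes, held 3908.3 ± 194.0 in Rroid-deficient and 2420.1 ± 320.9 in wildtype libraries at its end. Its promoter held 2918.7 ± 169.3 in Rroid-deficient and 3724.7 ± 492.9 in wildtype libraries, so the order of the 2 ends turned round. Bcl9l, a cofactor of beta-catenin, rose by 0.83 at its end and fell by 0.76 at its promoter on the log2 scale.

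**Figure D5:**
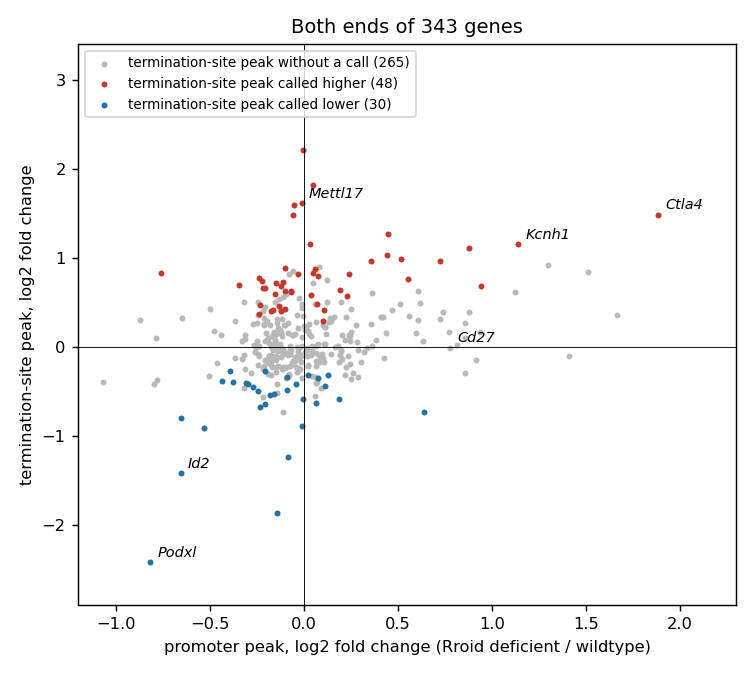
Log2 fold change (Rroid deficient over wildtype) at the TTS peak (vertical) against that at the most open promoter peak of the same gene (horizontal) for 343 genes, coloured by the call of the TTS peak. Podxl and Id2 are low on both axes and Ctla4 and Kcnh1 high on both, while Mettl17 is high on the vertical axis alone.

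The promoters of Id2 and Ctla4 are shown as examples of genes whose both ends moved the same way, 17 in all, of which 13 had a promoter window in RefSeq (GRCm38.p6, 250 bases before to 50 after the start, read in the orientation of the gene). Capitals mark CANNTG, the E-box bound by E proteins, which reads the same on both strands; 72.3% of 32851 promoter windows of the same length hold at least 1. Of the 18 windows of the 13 genes, 11 hold a match (61.1%), and the windows of Kcnh1, Sncb, Slc1a1 and Timm44 hold none. A match is a run of letters and no measure of binding.
Id2 (GRCm38.p6, chr12:25096043-25096342, minus strand): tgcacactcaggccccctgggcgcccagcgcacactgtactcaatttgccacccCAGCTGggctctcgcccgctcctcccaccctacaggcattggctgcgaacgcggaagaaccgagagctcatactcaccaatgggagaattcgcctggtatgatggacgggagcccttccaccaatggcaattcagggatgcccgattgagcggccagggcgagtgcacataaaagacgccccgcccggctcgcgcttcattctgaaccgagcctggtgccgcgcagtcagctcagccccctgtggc
Ctla4 (GRCm38.p6, chr1:60908775-60909074, plus strand): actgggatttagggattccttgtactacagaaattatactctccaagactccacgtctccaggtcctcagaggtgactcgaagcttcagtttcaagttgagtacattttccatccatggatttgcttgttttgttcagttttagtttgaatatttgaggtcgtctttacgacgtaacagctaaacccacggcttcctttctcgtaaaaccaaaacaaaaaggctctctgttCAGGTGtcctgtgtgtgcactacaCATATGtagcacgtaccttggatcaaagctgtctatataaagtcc
The Id2 window holds 1 match and the Ctla4 window 2.

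The lists of NK biology, pooled after their values were seen, held 25 TTS peaks, of which 4 rose and 6 fell (16% and 24%, against 13.8% and 12.1% of all peaks) and 15 had no call (median log2 fold change -0.05). With histones, housekeeping and cell cycle genes and markers of other cells added, 5 of 45 peaks rose and 12 fell, 4 of the falling ones at histone genes. At start sites, the summed peaks of 11 NK markers were 30662.5 to 35844.1 in Rroid-deficient and 39276.0 to 43601.6 in wildtype libraries, with 6 called lower and 0 higher, and the part of this in the NK gene values was not tested. In the mature effector list 3 of 8 peaks fell and 1 rose (median -0.17). Klrg1, whose product inhibits mature NK cells, held 1168.3, 1291.8 and 1290.0 at its end in Rroid-deficient and 1922.5, 1752.5 and 1960.3 in wildtype libraries (chromosome 6, 122218905 to 122220737; log2 fold change -0.59, SE 0.09, adjusted p = 0.000175, limma). The peak 1554 bp upstream of Zeb2, a factor of terminal maturation, fell by 1.52 on the log2 scale and lay at the end of a transcript that could not be paired with a gene. The peak between Wbp2 and Unc13d, which encodes Munc13-4 of granule release, fell by 0.42 and was chosen after its values were seen. Against these, Cst7, which encodes cystatin F, an inhibitor of granule cathepsins, rose at its end, with 824.8, 752.0 and 816.1 in Rroid-deficient and 462.1, 434.4 and 542.1 in wildtype libraries (log2 fold change 0.74, adjusted p = 0.000196). Klf2 had 779.0 ± 76.3 at its end in Rroid-deficient and 701.5 ± 32.7 in wildtype libraries, without a call.

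Among immature and memory genes 1 of 3 peaks rose and 0 fell, where 13.8% of all peaks rose and 12.1% fell. That peak lay at the end of Socs3, a feedback inhibitor of cytokine signalling (1320.0 ± 157.2 in Rroid-deficient and 887.7 ± 88.7 in wildtype libraries, log2 fold change 0.57). Cd27, a costimulatory receptor of immature NK cells, had no call at its end, 238 bp from the start of Tapbpl, with 1301.6 ± 73.3 in Rroid-deficient and 1314.2 ± 82.6 in wildtype libraries. Its promoter rose by 0.78 on the log2 scale. In the NK receptor list 1 of 4 peaks rose, at the end of Klrc2 (617.9 ± 77.0 in Rroid-deficient and 393.1 ± 74.5 in wildtype libraries, log2 fold change 0.66), an activating receptor gene with close copies, so reads may have been shared. Lag3, a checkpoint receptor gene, held 746.3 ± 104.8 in Rroid-deficient and 785.2 ± 22.4 in wildtype libraries without a call.

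Of 5 peaks of NK and ILC transcription factors 1 fell and 0 rose, at the end of Ikzf3, which encodes Aiolos (2273.9 ± 309.1 in Rroid-deficient and 2999.9 ± 266.1 in wildtype libraries, log2 fold change -0.41). This call was lost with DESeq2 on the 5 libraries other than wildtype library 2 (log2 fold change -0.33, adjusted p = 0.0599). It was also lost with Rroid-deficient library 5 alone against the wildtype libraries, which then give all of the spread (log2 fold change -0.24, adjusted p = 0.273, limma). Of 6 peaks of cytokine receptors and signalling 2 rose, Socs3 again and the end of Il2rb, the shared receptor chain for IL-2 and IL-15 (3613.9 ± 623.7 in Rroid-deficient and 2698.2 ± 572.5 in wildtype libraries). The Il2rb groups overlapped, and the call was lost when wildtype library 3 or Rroid-deficient library 5 or 6 was left out (adjusted p of 0.0634 to 0.149, limma). The survival list had 1 peak, nearest to Bbc3 and at the end of Sae1, which fell by 0.44 on the log2 scale and lost its call when wildtype library 2 or Rroid-deficient library 4 or 6 was left out (adjusted p of 0.0672 to 0.112, limma). Housekeeping genes had 0 calls among 4 peaks and cell cycle genes 0 among 3. Of all peaks 13.8% rose and 12.1% fell, and counts from lists this short cannot be told apart from those shares.

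The lists of cell-type markers, all short, held few TTS peaks each. Of 3 NK marker peaks, Id2 fell, Il2rb rose and Ncr1, which encodes NKp46, had no call (194.6 ± 43.3 in Rroid-deficient and 245.8 ± 33.8 in wildtype libraries). The Id and E-protein list held the Id2 peak alone. The T-cell list had 2 peaks without a call, Cd3e among them with 294.3 ± 34.2 in Rroid-deficient and 314.9 ± 40.2 in wildtype libraries. The B-cell list had 1, at the end of Blk, a kinase gene, which rose at a low level, with 62.3, 33.3 and 54.4 in Rroid-deficient and 28.5, 13.4 and 23.4 in wildtype libraries. The groups were apart, but the call was lost when wildtype library 2 or 3 or Rroid-deficient library 4 or 6 was left out (adjusted p of 0.0564 to 0.143, limma). Start-site peaks of 4 B-cell markers summed to 800.4 to 982.7 in Rroid-deficient and 383.9 to 467.5 in wildtype libraries, while Cd79a, Ms4a1 and Pax5 had no peak there; the part of other cells in the Blk value was not tested. Myeloid markers had 1 peak without a call, dendritic-cell markers 2 falling of 3, at Zbtb46 and near Clec9a, and ILC1 markers 1 without a call. Of all peaks 12.1% fell and 13.8% rose. Both dendritic-cell calls were lost when any wildtype library or Rroid-deficient library 4 was left out (limma). At Zbtb46 the log2 fold change was then -0.36 to -0.33 without a wildtype library and -0.24 without Rroid-deficient library 4 (adjusted p of 0.0539 to 0.143), against -0.35 with all libraries. Near Clec9a it was -0.66 to -0.53 without a wildtype library and -0.31 without Rroid-deficient library 4 (adjusted p of 0.0687 to 0.241), against -0.60 with all, and the call was also lost with scaling to total reads (adjusted p = 0.0735) and with loess (adjusted p = 0.0506). Erythroid and ILC2 and ILC3 lists had no TTS peak.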

How the data were processed

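HOMER, DiffBind, MACS2 (version 2.1.0), BWA, Trimmomatic (0.32), bcl2fastq (2.16.0) and R (3.1.1) are named, with build mm9, per the submitters' processing notes. What each did, any shift of reads to the cut site and any removal of duplicates are not given in the sources used here. Deposited by the authors was 1 normalized signal value per consensus peak and library. Those values were whole multiples of 1 step per library (100% within 0.01), which gave the reads. Columns show the genotype, but Rroid-deficient columns end in 4, 5 and 6, which match no sample title. TTS peaks were the rows whose annotation starts with TTS. Ending genes came from the accession in that annotation, matched to RefSeq (GRCm38.p6, names only) for 968 peaks and otherwise through the table.

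Log2-transformed values (pseudocount 1) of all 51775 peaks were compared by limma 3.58.1 (trend on abundance, Benjamini-Hochberg adjustment, call at an adjusted p under 0.05), since the design foresaw counts or normalized values and normalized values were found; the script was tested on simulated data. Fold changes are on that scale and understate changes of low peaks. Requiring a value of 10 in 3 libraries removed 0 peaks. edgeR 4.0.16 and DESeq2 1.42.0 were run on the reads of 5 libraries; wildtype library 2 was left out because its lowest value was not 1 step. Members, lists and tests were chosen with earlier results of these data known. Named peaks were the 10 largest rises and 10 largest falls among called peaks with separate groups and a mean log2 value at or above the median of the table, up to 3 called and 1 uncalled per list, Id2 and the 5 highest; others are marked as chosen after their values were seen.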

Additional observations from a re-analysis of the deposited data

How the results depend on the processing

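No paired analysis was possible because the Rroid-deficient columns carry numbers that match no sample title, so a replicate block could not be fitted. The main counts were 116 rising and 90 falling TTS peaks and a median log2 fold change of 0.01. Leaving out each library gave 81 to 124 rising and 57 to 97 falling peaks and medians of -0.001 to 0.028; for ends of the gene with the nearest start 37 to 56 and 28 to 44, and for ends near another gene's start 43 to 68 and 28 to 52. Over all peaks, leaving out each library gave 5218 to 7508 rising and 4039 to 6304 falling, against 7126 and 6257 with all libraries. Scaling to total reads moved the median to 0.071 for TTS peaks and 0.051 for all peaks. With only the upper part of peaks by mean tested, 67 rose, 29 and 38 in those subclasses, and the median was -0.069, against -0.066 for all peaks of that part. Without Rroid-deficient libraries 4 and 6, 67 rose (27 and 40) and 44 fell (26 and 17), in a fit with 1 Rroid-deficient library, assumed to vary like wildtype. With edgeR on the reads of 5 libraries 89 rose and 60 fell (5314 and 4291 of all peaks), 29 of the falling in the second subclass. With DESeq2 87 rose, 34 in the first subclass, and 57 fell (29 and 27), where 5038 and 3964 of all peaks did. At an adjusted p under 0.01, 67 rose (32 and 35) and 49 fell (23 and 25), and at 0.1, 68 fell in the second. Where a setting is not named, counts stayed within 1.5-fold. The cause of these moves was not tested beyond fewer libraries, fewer peaks or another limit.

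Of 34 named peaks with a call, 26 kept call and direction under every setting run on them and 8 lost the call under at least 1; the test on the upper part of peaks by mean held 44 of the 51 named peaks and left out 4 with a call, those of Hist1h4n (H4c17), Zeb2, Blk and Clec9a. Sign changes, 28 in all, were seen only at named peaks without a call. With libraries 4 and 6 of the Rroid-deficient group left out, the log2 fold changes became -0.169 near Batf3, -0.241 near Elane, 0.128 near Cirbp, 0.077 near Spag7, 0.021 at Scimp, 0.027 near Ccnd3, 0.063 at Hist2h4, 0.085 at Lag3, 0.077 near Tapbpl (the Cd27 end) and 0.068 at Cd3e. Leaving out 1 library at a time gave -0.069 to 0.753 near Elane, -0.118 to 0.045 near Cirbp, -0.167 to 0.035 at Lag3, -0.066 to 0.022 near Tapbpl and -0.179 to 0.006 at Cd3e. Scaling to total reads gave 0.023 near Cirbp and 0.046 near Tapbpl, and loess 0.077 and 0.039. edgeR and DESeq2 each gave 0.050 near Cirbp, 0.022 near Tapbpl and 0.015 at Cd3e. The settings without Rroid-deficient libraries 4 and 6 and those on 5 libraries with edgeR or DESeq2 were chosen after seeing the data. Counting error limits the lowest peaks, and the interval given covers counting error only and takes the lowest values as true reads.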
